A study of Mus musculus with 6 samples.

Results

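Cycling pre-neutrophils, the dividing stage that turns to secondary granule proteins after the myeloblast and promyelocyte, were described in c-Kit-enriched bone marrow of BALB/c mice by single-cell RNA sequencing. Cells past the filters were taken as members when they held at least 20 Camp UMIs per 10000 UMIs (UMI, unique molecular identifier, a count of 1 captured RNA molecule), at least 1 UMI of Mki67 plus Top2a, at most 1 Il1b UMI, and a value of ln(1 + Ms4a3 UMIs per 10000) of at most 3. Of 32762 barcodes past the filters, 6131 were members, 2419, 1770 and 1942 in pools 1, 2 and 3. The members were thus chosen by measured levels of Camp, Mki67, Top2a, Il1b and Ms4a3 in these same cells, so these 5 genes are described but neither tested nor counted below. Each pool held marrow of 3 mice, 1 of each group. The non-tumor-bearing (NTB) mouse was untreated. The vehicle mouse bore 4T1, a mammary carcinoma line from the same mouse strain, and received DPBS by daily intraperitoneal injection over 2 weeks from the time its tumor could be measured. The brequinar (BRQ) mouse bore 4T1 and received 10 mg/kg of brequinar, an inhibitor of the pyrimidine synthesis enzyme DHODH, on the same schedule. All mice were 10 weeks old at harvest, and no mouse without a tumor received BRQ, so an effect of the drug apart from the tumor cannot be told apart in these groups. The NTB mice received no injections, so in vehicle against NTB the tumor and the injections cannot be told apart either.

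Neutrophils are made in the marrow from granulocyte-monocyte progenitors (GMPs). Promyelocytes first fill primary (azurophil) granules with proteases such as elastase, proteinase 3 and cathepsin G and with myeloperoxidase. Myelocytes, the last dividing stage, then turn to secondary granule proteins such as lactoferrin, cathelicidin and lipocalin 2 under the transcription factor C/EBP epsilon, and division ends before tertiary granule proteins such as Mmp8 and Mmp9 reach their highest levels.

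In all groups the marrow was enriched for c-Kit-positive cells with magnetic beads before pooling. Mice within a pool were told apart by 3 hashtag oligonucleotides carried on antibodies. Their barcode sequences are shown because every comparison between mice rests on them.
NTB: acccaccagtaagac
vehicle: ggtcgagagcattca
BRQ: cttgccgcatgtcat
HTODemux gave 2557 of the 6131 members to 1 mouse. Of the members, 61.6%, 54.1% and 21.7% in pools 1, 2 and 3 were called hashtag-negative and 7.36%, 7.18% and 20.6% were called hashtag doublets. Over all cells past the filters 39.2%, 52.1% and 31.5% were hashtag-negative. Singlets were 31.0%, 38.8% and 57.7% of members against 52.8%, 41.8% and 50.5% of all cells. The calls thus kept fewer members than other cells in pools 1 and 2 and more in pool 3, which bears on the shares among singlets below. The NTB mice of pools 1, 2 and 3 held 133, 409 and 939 members, the vehicle mice 319, 36 and 79, and the BRQ mice 298, 241 and 103. The vehicle mouse of pool 2 was thus the smallest sample, with 405917 UMIs over its 36 members, against 862391 to 8120370 UMIs in the other 8 mice. Median UMIs per member ranged from 7887 to 11103 over the mice. Scrublet, which marks likely doublets, marked 8.87% of members against 4.54% of all cells past the filters and 1.21% of Camp-high cells without Mki67 or Top2a. Over the mice its share of members ranged from 3.42% in the NTB mouse of pool 2 to 22.2% in the vehicle mouse of pool 2. The 3 pools shared 38 to 48 barcodes pairwise. The 3 pools held 13750, 11441 and 14297 barcodes with 128035770, 100700982 and 135564079 gene UMIs.

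Markers of the name that the rule did not use were read against B lineage cells of the same pools, taken as other cells with at least 3 UMIs of Cd79a plus Cd79b, which should lack them. Ngp, a secondary granule protein, had a UMI in 99.9% of members and 61.4% to 68.9% of B lineage cells over the 3 pools, and in members stood at a median of 312 UMIs per 10000 (5th to 95th percentile 42.2 to 549). Fcnb (ficolin B) had a UMI in 87.3% of members and 19.4% to 30% of B lineage cells, and Chil3 (a chitinase-like lectin) in 86.6% and 8.57% to 10.4%. Cebpe, which codes for C/EBP epsilon, had a UMI in 95.3% of members and 25% to 37.9% of B lineage cells. The proliferation genes Mki67 and Top2a, which the rule fixed at 1 UMI or more, together gave a median of 8 UMIs per member, with 25% of members at 4 or fewer. Kit had a UMI in 16.8% of members and 40% to 43.6% of B lineage cells, in marrow enriched for c-Kit protein. Camp itself ranged widely, from 38.1 to 742 UMIs per 10000 between the 5th and 95th percentiles. In B lineage cells median Camp was 0.916, 0.468 and 0.765 per 10000 in the 3 pools, and at most 2.24% of these cells reached the limit of 20. Their median depth was 10216 to 12349 UMIs per cell, against 8349 in members.

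As a description without a test, the members lay between the other neutrophil-lineage cells of the same mice. GMPs, with an Ms4a3 value over 3, numbered 7021, and Camp-high cells that met the same limits on Il1b and Ms4a3 without a UMI of Mki67 or Top2a, called non-cycling cells below, numbered 1822. With UMIs summed per mouse and scaled to a common library total (CPM), the median over the 9 mice of Prtn3 (proteinase 3) was 15419 in GMPs, 4828 in members and 1839 in non-cycling cells. Ltf (lactoferrin) ran the other way, at 58.9, 3989 and 9255 CPM. Cebpe had its highest median in members, with 345 CPM in GMPs, 558 in members and 434 in non-cycling cells, and its ranges over the mice, 275 to 407 in GMPs and 419 to 702 in members, did not overlap. Mmp9 and Mmp8, proteases of the last granules, were at 91.6 and 51.7 CPM in members against 1777 and 1419.6 in non-cycling cells. Retnlg, a transcript of mature neutrophils, was at 323 CPM in members and 7407 in non-cycling cells. Genes of division that the rule did not use were also higher in members than in non-cycling cells: Rrm2 (ribonucleotide reductase) was at 183 against 30.9 CPM and Ccnb1 (cyclin B1) at 85.5 against 15.4 CPM. Median depth was 13398 UMIs per cell in GMPs, 8349 in members and 3824.5 in non-cycling cells.

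Cells just inside and just outside each limit are described without a test. The 115 members with 20 to 25 Camp UMIs per 10000 had median Ngp of 35.5 and Elane (elastase) of 78.9 per 10000, and the 132 cells at 15 to 20 that were left out had 29.5 and 69.4. The 651 members with exactly 1 UMI of Mki67 plus Top2a had median Ltf of 65.8 and Fcnb of 5.13 per 10000 against 105 and 0 in the non-cycling cells. At the Ms4a3 limit, 551 members lay within 0.25 below it and 440 cells within 0.25 above it, with median Elane of 88.6 and 98.1 per 10000. For Il1b, the 111 members with 1 UMI had median Fcnb of 7.797 and Elane of 4.68 per 10000, and the 28 cells with 2 UMIs had 14.1 and 18.8.

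Ordered by Camp, the members of every pool went from higher levels of several primary granule genes to higher levels of several secondary granule genes. Each pool's members were split into quartiles by Camp UMIs per 10000, and all UMIs of a quartile were summed. Prtn3 fell from 88.2 per 10000 in the lowest quartile to 8.15 in the highest, as medians of the 3 pools. Elane went from 68.5 to 7.14, and Mpo (myeloperoxidase) from 31.7 to 2.46. The endoplasmic reticulum (ER) chaperone Hspa5 followed the same order, with 3.16, 1.62, 0.827 and 0.7103 per 10000. Ltf rose from 11.5 to 65.3 by the third quartile and stood at 64.6 in the highest. Ngp went from 106 to 399, and Ly6g, the surface antigen used to gate mouse neutrophils, from 1.83 to 7.59. Mmp8, of the later granules, also fell, with 0.737, 0.6704, 0.242 and 0.0589 per 10000 in the 4 quartiles, so the secondary and tertiary granule genes did not all follow Camp. Cebpe rose only from 4.92 to 7.13. Fcnb, one of the markers of the name, had medians of 12.9 and 12.4 in the lowest and highest quartiles, but in pool 2 it went from 16.7 to 12.4 while it was level in pools 1 and 3. Ccnb1 had 0.775 and 0.865, and the replication licensing gene Mcm5 went from 1.42 to 0.965. This is a description, because the quartiles were cut on Camp in the same cells.

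**Figure D1:**
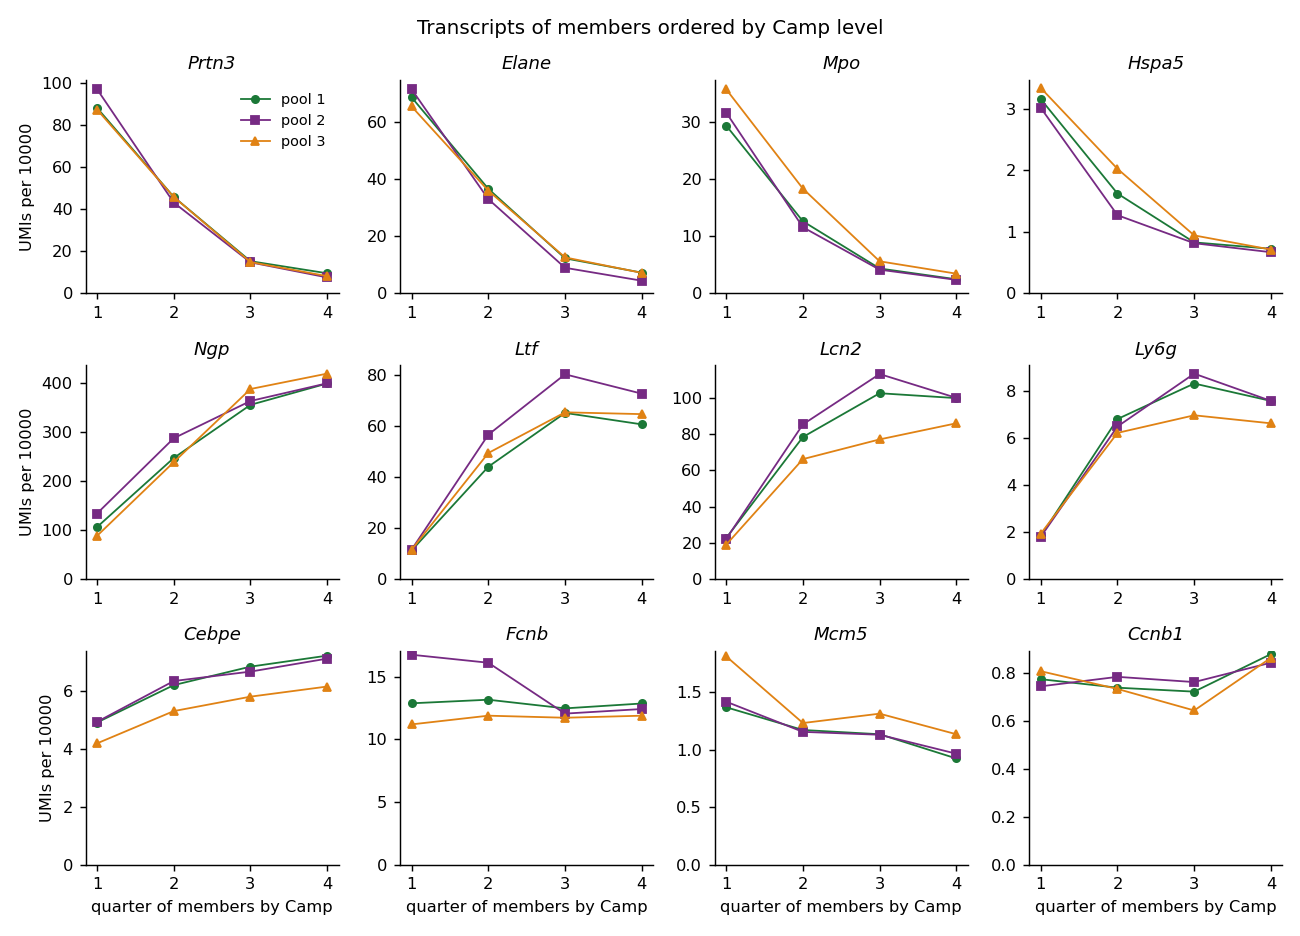
Transcripts of the members of each pool, in quartiles by Camp level (x axis, 1 lowest), as UMIs per 10000 UMIs summed over the cells of a quartile (y axis, from 0); each line is 1 pool. Prtn3, Elane, Mpo and Hspa5 fall and Ngp, Ltf, Lcn2 and Ly6g rise from the lowest quartile in all 3 pools, while Ccnb1 stays between 0.645 and 0.88 and Fcnb falls in pool 2 and is level in the others.

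The groups differed in where their members lay on this order. In NTB mice of pools 1, 2 and 3, 28.6%, 20.8% and 12.1% of members fell in the lowest Camp quartile of their pool, in vehicle mice 48.0%, 55.6% and 36.7%, and in BRQ mice 39.6%, 43.6% and 53.4%. The highest quartile held 30.1%, 40.6% and 36.7% of NTB members, 8.46%, 8.33% and 7.59% of vehicle members and 7.72%, 5.39% and 0% of BRQ members. In both quartiles all NTB mice lay apart from all tumor-bearing mice. Because Camp chose the members, these shares are given with no test, and they stand beside every comparison below.

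The share of members among all singlets was lower in both tumor-bearing groups than in NTB mice. It was 24.0%, 31.3% and 38.4% in NTB mice, 11.5%, 9.42% and 6.26% in vehicle mice and 11.6%, 10.4% and 4.40% in BRQ mice of pools 1, 2 and 3. The mean was 31.2% ± 7.18 (SD, n = 3) in NTB mice, 9.05% ± 2.62 in vehicle mice and 8.79% ± 3.85 in BRQ mice. No vehicle or BRQ mouse overlapped with an NTB mouse, and the order held within each of the 3 pools. BRQ and vehicle mice overlapped, with means that differed by -0.26 percentage points. Because the genes of the rule set these shares, they too are given with no test. They are shares of the c-Kit-enriched cells that received a hashtag call, not of marrow. With calls from the ratio of hashtag counts in place of HTODemux, the means were 18.1% in NTB, 8.28% in vehicle and 6.75% in BRQ mice, and a smaller margin between hashtags gave 37.7%, 7.42% and 7.08%.

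Members made up 83.1%, 78.4% and 80.7% of Camp-high singlets in NTB mice, 87.2%, 87.8% and 73.1% in vehicle mice and 79.9%, 77.7% and 71.0% in BRQ mice. The ranges of the 3 groups overlapped, and within each pool the BRQ mouse was lower than both other mice. Differences between group means were 1.96 percentage points for vehicle minus NTB, -6.48 for BRQ minus vehicle and -4.52 for BRQ minus NTB, again with no test. They depended on the assignment of mice and on the limits: with hashtag ratios they were -8.44, 3.99 and -4.45 percentage points, with members of at least 200 Camp UMIs per 10000 4.65, -5.53 and -0.883, and with the filter limits of 500 to 7500 read as UMIs in place of genes -6.58, -6.35 and -12.9. A cell with few UMIs is more likely to lack Mki67 and Top2a, so the rule was also applied to cells thinned to 4000 UMIs, which left out 713 NTB, 993 vehicle and 1108 BRQ singlets. The thinned means were 83.6%, 82.9% and 76.6% in NTB, vehicle and BRQ mice, and those among all singlets 31.7%, 9.54% and 8.74%.

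**Figure D2:**
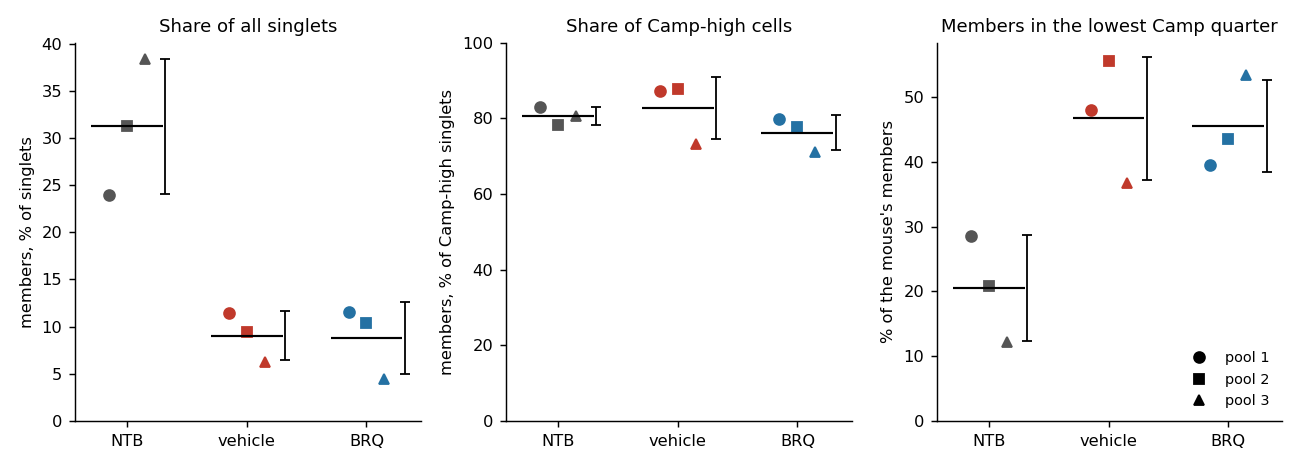
Members as a percentage of all singlets (left), members as a percentage of Camp-high singlets (middle) and the percentage of each mouse's members in the lowest Camp quartile of its pool (right), for the 3 mice of each group. Each symbol is 1 mouse and its shape the pool, horizontal lines are means and bars are ± SD (n = 3); the NTB mice stand apart from the tumor-bearing mice in the left and right panels, and in the middle panel the groups overlap while the BRQ mouse is lowest of each pool.

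The first comparison of transcripts asked how members differed between vehicle-treated tumor-bearing and NTB mice. In vehicle members 6 of 12 primary granule genes, 22 of 52 ER chaperone and stress genes and 18 of 79 ribosomal protein genes were called higher, and 6 of 25 secondary and tertiary granule and neutrophil genes lower. UMIs of each mouse's members were summed, scaled to CPM and compared with edgeR's quasi-likelihood test, with Benjamini-Hochberg adjusted p under 0.05 as the limit for a call. Of 9353 genes tested, 428 were called (4.58%), 296 higher (3.16%) and 132 lower (1.41%) in vehicle mice. The count moved with single mice: it was 990 without the NTB mouse of pool 1, 108 and 47 without those of pools 2 and 3, 32 and 151 without the vehicle mice of pools 1 and 2, and 207 without the BRQ mouse of pool 1, which shares the estimate of the spread. The 3 vehicle mice did not overlap with the 3 NTB mice in 20.5% of all genes tested. For the granule, ER and ribosomal lists, values are also given with mice assigned by hashtag ratios in place of HTODemux and with the limits of 500 to 7500 read as UMIs.

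The fixed primary granule list held Mpo, Elane, Prtn3, Ctsg, Prss57, Ctsc, Serpinb1a, Srgn, Gstm1, Nkg7, Clec12a and Cst7. Of these 12 genes, 6 were called higher and none lower, and the median log2 fold change was 0.63 against 0.00 over all genes tested. Prtn3 (ENSMUSG00000057729, chromosome 10, 79874476 to 79883174) was at 4099, 4313 and 2603 CPM in the NTB mice of pools 1, 2 and 3 and at 8529.8, 8828 and 8347 CPM in the vehicle mice. The lowest vehicle mouse stood clear above the highest NTB mouse (log2 fold change 1.22, SE 0.16, adjusted p = 0.000677). Mpo was at 1975, 1710.3 and 1268 CPM in NTB and 2321, 2902 and 2459 in vehicle mice, also without overlap (log2 fold change 0.63, SE 0.15, adjusted p = 0.024). Ctsg (cathepsin G) rose from 551, 343 and 209 CPM in NTB to 895, 912 and 582 in vehicle mice (log2 fold change 1.13, SE 0.24, adjusted p = 0.0132), and the groups were apart, though by a small gap between the NTB mouse of pool 1 and the vehicle mouse of pool 3. The other called members were Ctsc, the protease that activates these enzymes, with a log2 fold change of 2.03, the granule proteoglycan Srgn at 0.89 and the serine protease Prss57 at 0.63. Elane was at 4398, 3665 and 2474 CPM in NTB and 5937, 4528 and 4992 in vehicle mice and did not pass (log2 fold change 0.56, SE 0.17, adjusted p = 0.0723).

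Of the 25 secondary and tertiary granule and neutrophil genes, 6 were called lower and 1 higher, with a median of -0.31. Chil3 (ENSMUSG00000040809, chromosome 3, 106147554 to 106167564) had the smallest adjusted p among them, at 1240.2, 1418 and 1484 CPM in NTB and 572, 585 and 556 in vehicle mice (log2 fold change -1.28, SE 0.13, adjusted p = 4.84e-05). Its 3 values within each group lay close together and the groups were far apart. Olfm4 (olfactomedin 4, carried in a subset of neutrophils) was at 414, 536 and 581 CPM in NTB and 193, 98.8 and 196 in vehicle mice (log2 fold change -1.58, SE 0.29, adjusted p = 0.00561). Ltf was at 3739.6, 5141 and 4994 CPM in NTB against 1996, 2763 and 3237 in vehicle mice (log2 fold change -0.80, SE 0.17, adjusted p = 0.0132). Lyz2 (lysozyme), Ly6g and Ngp were also lower, with log2 fold changes of -0.88, -0.69 and -0.64. Lrg1, a glycoprotein of neutrophil granules, was the 1 gene called higher (0.67), and Lcn2 (lipocalin 2) did not pass (log2 fold change -0.29, SE 0.13, adjusted p = 0.21).

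When only members with at least 200 Camp UMIs per 10000 were summed, a limit chosen after the groups' Camp levels were seen, 17 to 789 members per mouse remained. The secondary granule median was then 0.09, with 2 genes called higher and none lower, and the primary granule median was 0.55 with 2 of 12 called higher. The primary granule median and the number of its genes with a positive value, 11 of 12, changed little under the limit. Its calls fell from 6 to 2, with fewer cells left. The limit does not make the groups alike in Camp, and Prtn3 still fell from 45.8 per 10000 in the second Camp quartile to 8.15 in the highest. The part of the Camp order in these differences was not tested. Prtn3 kept its call under this limit, and Mpo, Ctsg, Chil3, Olfm4, Ltf, Lyz2, Ly6g and Ngp lost theirs. With hashtag ratios the medians were 0.19 for primary and -0.204 for secondary granule genes, and with limits read as UMIs 0.30 and 0.03. Each of these 2 settings ended the calls of Prtn3, Mpo, Ctsg, Chil3, Olfm4, Lyz2, Ly6g and Ngp, and hashtag ratios ended that of Ltf, whose sign turned with limits read as UMIs. Over single mice, Prtn3, Chil3 and Lyz2 kept their calls whichever was left out. Mpo, Ctsg, Ltf, Ly6g and Ngp lost theirs when pool 2 or 3 gave no NTB mouse or pool 1 or 2 no vehicle mouse, and Mpo and Ngp also without the BRQ mouse of pool 1. The call of Olfm4 was lost without the vehicle mouse of pool 1.

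**Figure D3:**
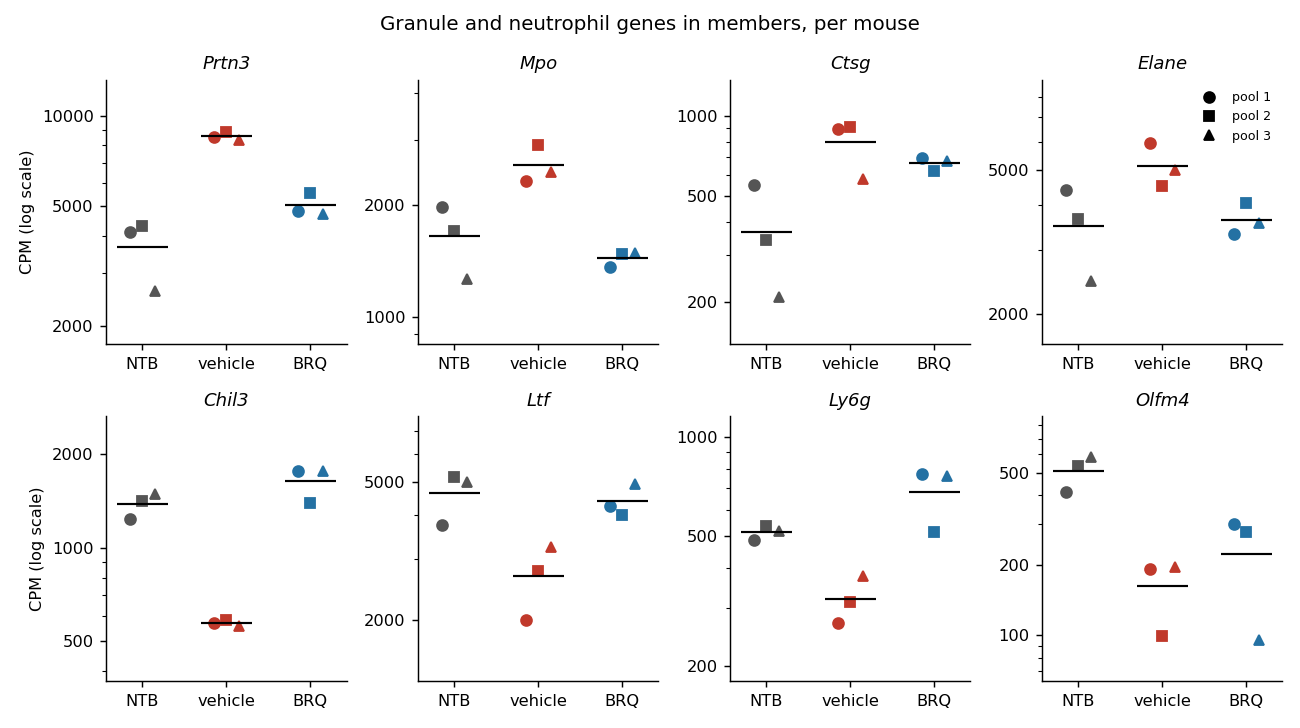
CPM (y axes, log scale) of 4 primary granule genes (top) and 4 secondary granule or neutrophil genes (bottom) in members of each mouse. Symbols are mice, shapes are pools and lines are group means; Prtn3 and Mpo are highest and Chil3 and Ly6g lowest in the 3 vehicle mice.

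Of 52 tested genes of ER chaperones and the unfolded protein response (UPR), the program by which cells adjust ER folding capacity, 22 were called higher in vehicle mice and none lower, with a median of 0.49. The number called ran from 3 without the vehicle mouse of pool 1 to 25 without the NTB mouse of pool 1, with 5 and 11 without the NTB mice of pools 3 and 2 and 12 without the vehicle mouse of pool 2. With hashtag ratios 3 of 48 tested were called (median 0.34), and with limits read as UMIs the median was 0.21 over 37 tested and no call of the 22 was left. Hspa5 (ENSMUSG00000026864, chromosome 2, 34771970 to 34777547), the main ER chaperone BiP, was at 193, 143 and 129 CPM in NTB and 292, 365 and 215 in vehicle mice (log2 fold change 0.90, SE 0.17, adjusted p = 0.00658). Pdia6, a disulfide isomerase, was at 98.5, 74.8 and 63.4 CPM in NTB against 186, 256 and 106 in vehicle mice (log2 fold change 1.21, SE 0.21, adjusted p = 0.00434). Calr (calreticulin, a calcium-binding chaperone) was at 431, 259 and 245 CPM in NTB against 676, 843 and 482 in vehicle mice (log2 fold change 1.10, SE 0.21, adjusted p = 0.00628). In these 3 genes, as in 20.5% of all genes, no vehicle mouse overlapped with an NTB mouse, and the vehicle mouse of pool 2 was highest and that of pool 3 lowest. Creld2 (log2 fold change 1.02), Sdf2l1 (1.48), Hsp90b1 (0.72), Manf (0.93) and the UPR transcription factor Xbp1 (0.53) were among the other called genes. Fkbp11, a prolyl isomerase, had the largest fold of the list (log2 fold change 1.57, SE 0.41, adjusted p = 0.0384) but its groups overlapped, at 10.9, 5.69 and 5.996 CPM in NTB and 27.7, 15.2 and 1.24 in vehicle mice.

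The start regions of these genes are shown because several share a known sequence. The ER stress response element, searched on both strands as CCAAT followed after 9 bases by CCACG in RefSeq windows (GRCm38.p6) of 250 bases before to 50 after each gene start, lay in 0.119% of all 32851 windows. Of the 60 listed ER genes, 47 had a window and 9 of these held the element, and of the 19 genes called higher that had a window, 5 held it: Hspa5, Pdia6, Calr, Creld2 and Hsp90b1. Of the other 4, Canx (log2 fold change 0.497, SE 0.14, adjusted p = 0.0553), Dnajc3 (0.29) and Syvn1 (-0.07) were not called and Derl3 was not tested. In the 120 bases printed for 4 of them, read 5′ to 3′ on the strand of the gene, capitals mark the element, which in Calr and Creld2 lies on the opposite strand.
Hspa5 (chr2:34771970-34772089, plus strand): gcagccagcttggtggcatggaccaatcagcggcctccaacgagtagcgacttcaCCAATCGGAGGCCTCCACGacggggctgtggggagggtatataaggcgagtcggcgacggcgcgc
Pdia6 (chr12:17266441-17266560, plus strand): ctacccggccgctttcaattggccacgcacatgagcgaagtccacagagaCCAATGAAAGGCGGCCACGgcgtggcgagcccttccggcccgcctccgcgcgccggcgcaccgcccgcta
Calr (chr8:84847024-84847143, minus strand): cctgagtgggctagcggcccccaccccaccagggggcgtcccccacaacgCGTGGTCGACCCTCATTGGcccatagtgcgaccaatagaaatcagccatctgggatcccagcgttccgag
Creld2 (chr15:88819470-88819589, plus strand): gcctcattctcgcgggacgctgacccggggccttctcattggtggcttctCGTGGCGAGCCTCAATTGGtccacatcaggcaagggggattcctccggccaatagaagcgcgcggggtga
A match is a description of the letters only, and binding was not measured.

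Of 79 ribosomal protein genes, 18 were called higher and all 79 had a positive log2 fold change, with a median of 0.45 and a range of 0.20 to 0.96. Rps2, a small subunit protein, was at 757, 503 and 436 CPM in NTB and 1142, 1170.04 and 962 in vehicle mice (log2 fold change 0.96, SE 0.17, adjusted p = 0.00468), and Rpl41, of the large subunit, at 3092, 2490.04 and 2388 CPM in NTB against 4289, 4495 and 4389.6 in vehicle mice (log2 fold change 0.73, SE 0.13, adjusted p = 0.00428). Both the calls and the sign depended on the setting. With hashtag ratios 46 of the 79 were positive, with a median of 0.017, and with limits read as UMIs 41, with a median of 0.0014, and in neither was any of the 18 calls left. Without 1 mouse, 1 to 66 were called, fewest without the vehicle mouse of pool 1 and most without the NTB mouse of pool 1. With the pool as a block in the fit, 59 of the 79 were called, and 634 of all 9353 genes tested. Under the Camp limit of 200, the ribosomal median was 0.36 with 1 gene called, and the ER median 0.29 with 3 called. With the NTB mouse of pool 3 or the vehicle mouse of pool 1 left out, Hspa5, Pdia6 and Calr lost their calls, and without the latter Creld2 and Sdf2l1 did too, while Hsp90b1 and Pdia3 kept theirs without any 1 mouse but lost them with hashtag ratios, with limits read as UMIs and under the Camp limit of 200. Manf lost its call when pool 2 or 3 gave no NTB mouse or pool 1 or 2 no vehicle mouse.

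Several genes with low levels in NTB members were many times higher in vehicle mice. Lipg (ENSMUSG00000053846), an endothelial-type lipase, was at 10.1, 11.97 and 8.93 CPM in NTB and 137, 122 and 179 in vehicle mice (log2 fold change 3.86, SE 0.31, adjusted p = 2.08e-06). Its call held in all 21 alternatives tried, as did that of Pim1 (ENSMUSG00000024014, chromosome 17, 29490753 to 29496112), a kinase induced by cytokine receptors through STAT proteins. Pim1 was at 47.8, 47.3 and 60.4 CPM in NTB against 170.2, 93.7 and 207 in vehicle mice (log2 fold change 1.63, SE 0.24, adjusted p = 0.00119). Csf2rb, the shared receptor chain for GM-CSF, IL-3 and IL-5, was at 63.03, 59.9 and 67.1 CPM in NTB against 126, 114 and 174 in vehicle mice (log2 fold change 1.12, SE 0.22, adjusted p = 0.00967). The interferon-inducible membrane proteins Ifitm1, Ifitm2 and Ifitm3 were called higher (log2 fold change 1.92, 0.97 and 1.07), together with Bst2 (1.13), while the other 14 tested interferon-stimulated genes were not called. The list median of -0.30 turned to 0.14 without the vehicle mouse of pool 1, to 0.501 over 9 tested genes with hashtag ratios and to 1.14 over 5 with limits read as UMIs. S100a6 (1.72), a calcium-binding protein, and Cmah (1.498), a sialic acid hydroxylase, were also called higher.

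Stefin genes were not a fixed list and are described together because some of them had the largest folds. Of 6 of them, which code for inhibitors of cysteine proteases, Stfa2, Stfa2l1 and Cstdc5 were called higher in vehicle mice. Stfa2 (ENSMUSG00000022902, chromosome 16, 36403992 to 36408457) was at 0.724, 1.197 and 4.41 CPM in NTB and 18.3, 142 and 97.6 in vehicle mice (log2 fold change 4.33, SE 1.07, adjusted p = 0.0292). Stfa2l1 was at 1.45, 5.39 and 5.14 CPM in NTB against 22.7, 78.5 and 86.5 in vehicle mice (log2 fold change 3.36, SE 0.81, adjusted p = 0.0261), and Cstdc5 at 33.3, 48.8 and 41.5 CPM in NTB against 132, 359.6 and 553 in vehicle mice (log2 fold change 2.99, SE 0.63, adjusted p = 0.0122). For these 3 genes, the lowest vehicle mouse was that of pool 1, still above every NTB mouse. Stfa3 (2.69), Cstdc4 (2.76) and Cstdc6 (2.04) had positive differences that did not pass (adjusted p = 0.138, 0.129 and 0.223). These genes are related neighbors within chromosome 16, between 36156811 and 36455392 (GRCm38), so the split of reads among them is uncertain. Calls for Stfa2, Stfa2l1 and Cstdc5 were lost without the NTB mouse of pool 2 or 3 and without the vehicle mouse of pool 2, those of Stfa2 and Stfa2l1 also without the vehicle mouse of pool 3, and that of Stfa2l1 without the vehicle mouse of pool 1. For the other increases, Ifitm1, S100a6 and Cmah lost their calls when the NTB or the vehicle mouse of pool 2 was left out, S100a6 and Cmah also without the NTB mouse of pool 3, S100a6 without the vehicle mouse of pool 3 and Cmah without that of pool 1. The call of Csf2rb ended when pool 2 or 3 gave no NTB mouse or pool 1 no vehicle mouse.

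The bases before the starts of 3 stefin genes are printed to show how alike the neighbors are. Capitals mark the longest run that the RefSeq windows of Stfa1, Stfa2, Stfa2l1, Stfa3, Cstdc4 and Cstdc5 all share, 13 bases that 0.0274% of all windows hold on either strand. Over the 15 pairs of these 6 genes, 35% to 92.5% of the 80 bases were the same without gaps.
Stfa2 (chr16:36408383-36408462, minus strand): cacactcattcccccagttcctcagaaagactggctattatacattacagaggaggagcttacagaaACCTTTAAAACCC
Stfa2l1 (chr16:36156708-36156787, plus strand): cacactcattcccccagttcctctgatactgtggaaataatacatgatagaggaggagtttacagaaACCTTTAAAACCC
Cstdc4 (chr16:36184113-36184192, plus strand): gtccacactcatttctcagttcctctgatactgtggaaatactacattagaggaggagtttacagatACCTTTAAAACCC
The printed stretches are 80 bases long, are given 5′ to 3′ on the strand of the gene and end shortly before its RefSeq start.

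**Figure D4:**
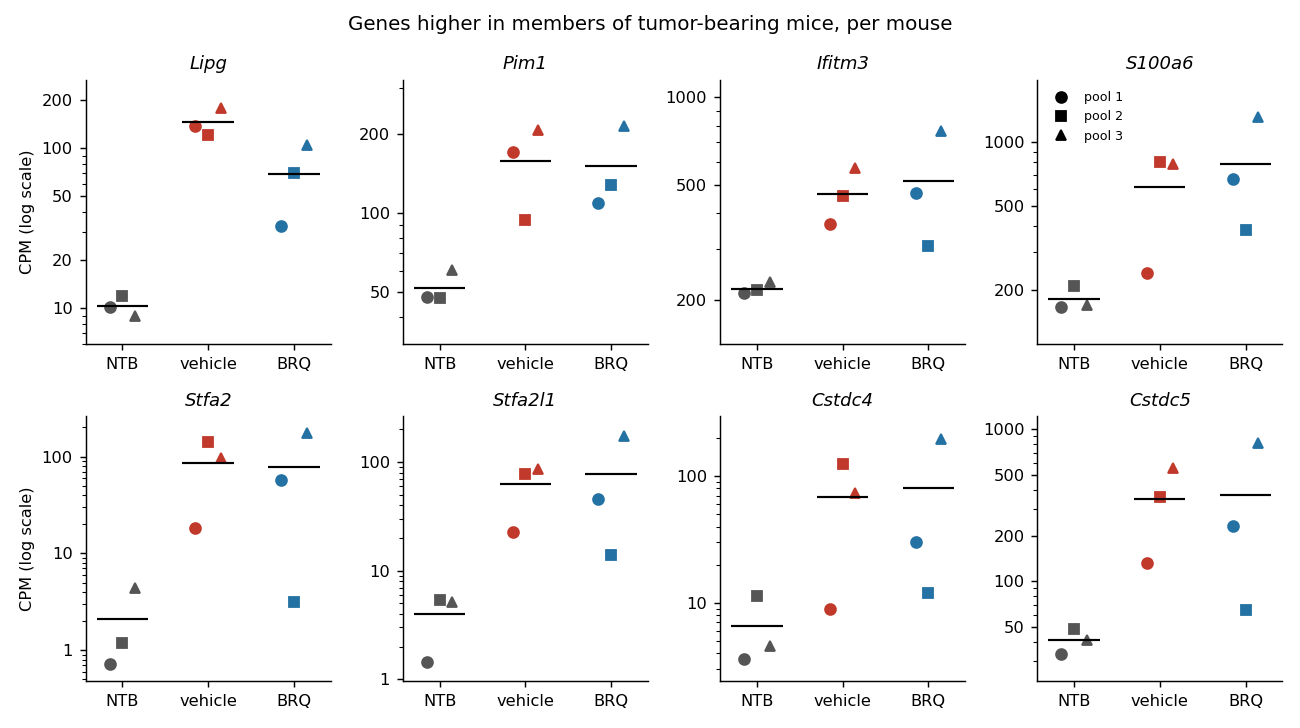
CPM (y axes, log scale) in members of each mouse for Lipg, Pim1, Ifitm3 and S100a6 (top) and 4 stefin genes (bottom). Symbols are mice, shapes are pools and lines are group means; no vehicle mouse overlaps with an NTB mouse except in Cstdc4, and the BRQ mouse of pool 2 is the lowest BRQ mouse in the 4 stefin genes.

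Among genes lower in vehicle mice, Lpl (lipoprotein lipase) was at 29.7, 41.01 and 50.3 CPM in NTB and 14.1, 12.7 and 3.71 in vehicle mice (log2 fold change -1.84, SE 0.34, adjusted p = 0.00613). Fmnl2, a formin that builds actin filaments, was at 36.9, 48.2 and 59.96 CPM in NTB against 15.7, 15.2 and 14.8 in vehicle mice (log2 fold change -1.71, SE 0.22, adjusted p = 0.00055) and kept its call without any 1 mouse but not with limits read as UMIs. Tnfsf13b, which codes for the B cell survival factor BAFF, went from 51.4, 69.1 and 72.4 CPM in NTB to 25.6, 27.9 and 27.2 in vehicle mice (log2 fold change -1.33, SE 0.19, adjusted p = 0.000975), and Cd33, a sialic acid-binding receptor of myeloid cells, from 73.2, 94.3 and 104 CPM in NTB to 36.3, 40.5 and 46.9 in vehicle mice (log2 fold change -1.22, SE 0.18, adjusted p = 0.00132). The kinase Stk39 (-1.27) and Tmem8 (-1.15) were also called lower. That the groups did not overlap in these 6 genes follows from the rule by which they were named. Except for Fmnl2 these calls were lost without the vehicle mouse of pool 1, and those of Lpl and Tmem8 also without the NTB mouse of pool 3. Those of Cd33, Stk39 and Tmem8 were lost with hashtag ratios, those of Lpl, Tnfsf13b, Cd33, Stk39 and Tmem8 with limits read as UMIs, and those of Stk39 and Tmem8 under the Camp limit of 200.

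The members were kept only if they held Mki67 or Top2a, so all were taken as dividing, and other genes of division were compared within them. Of the 6131 members, 651 held just 1 UMI of these genes, which may not show division. Their median depth was 4969 UMIs, against 3824.5 in the non-cycling cells. None of 40 S phase genes and none of 50 mitosis genes was called by edgeR, with medians of 0.01 and -0.11. DESeq2, which gave no adjusted p for many genes, also called none, and at unadjusted p under 0.05 the counts were 4 S phase and 6 mitosis genes. Over all 9353 genes tested by edgeR, 2021 had an unadjusted p under 0.05. With the smaller hashtag margin 3 S phase genes were called lower and 1 higher and 6 mitosis genes lower, and without Scrublet-marked cells 2 mitosis genes were called lower. Over all genes these settings called 1579 of 9382 tested, 982 of them higher, and 764 of 8387 tested, 521 of them higher. With limits read as UMIs the S phase median was -0.30 with 4 of 34 positive. Of 31 replication-dependent histone genes, 2 were called higher, the linker histone gene Hist1h1b (154, 197 and 167 CPM in NTB and 340.2, 420.4 and 367 in vehicle mice, log2 fold change 1.10, SE 0.18, adjusted p = 0.00249) and Hist1h3i (0.94). Of 30 tested genes of pyrimidine synthesis and salvage, Nme1, Nme2 and the uridine phosphorylase gene Upp1 were called higher (0.92, 1.197 and 2.39) and Cmpk2 lower (-1.34). These 4 calls were lost without the NTB mouse of pool 3, without the vehicle mouse of pool 1 and with limits read as UMIs, and 1 gene of the list was called with hashtag ratios, without the NTB mouse of pool 2 or without the vehicle mouse of pool 2. Dhodh, the gene of the enzyme that brequinar inhibits, was at 7.97, 2.095 and 3.67 CPM in the NTB mice, at 5.48, 2.53 and 3.71 in those given vehicle and at 4.87, 5.31 and 5.02 in those given BRQ, and did not pass in any comparison. Of 21 neutrophil transcription factor genes, only Cebpb was called (log2 fold change 0.55, SE 0.13, adjusted p = 0.0263), and Cebpe was not (log2 fold change -0.22, SE 0.15, adjusted p = 0.401). Over all genes tested 4.58% were called, 3.16% higher and 1.41% lower, so 1 call in a list of 21 is near that share. In the remaining lists, Csf2rb, Csf2rb2 (1.63) and Ccr2 (1.95) were higher and Cxcr4, the receptor that holds cells in the marrow, lower (-0.58) among 25 receptors. Gclm (1.09), Prdx1 (0.98) and Gpx1 (0.43) were higher among 21 oxidase and antioxidant genes. Il4ra (1.14) and Tgfb1 (0.45) were higher and Cd33 lower among 13 tested suppressor cell genes, and Bax (0.79) was higher among 15 tested p53 targets. Calls in these smaller lists depended on the setting: those of Il4ra and Tgfb1, for example, were both lost with hashtag ratios and without any 1 of 6 mice, the NTB mice of pools 2 and 3, all 3 vehicle mice and the BRQ mouse of pool 1. Over the 21 alternatives the highest numbers called were 4 higher and 3 lower among transcription factor genes, 9 higher and 4 lower among receptor genes, 7 higher and 1 lower among oxidase and antioxidant genes, 3 higher and 2 lower among suppressor cell genes and 2 higher and 2 lower among p53 target genes. They were 4 higher and 1 lower among histone genes, 8 higher and 3 lower among pyrimidine genes, 5 higher and 1 lower among interferon-stimulated genes, 1 higher and 3 lower among S phase genes and 6 lower among mitosis genes. The lowest number in either direction was 0 in each of these lists.

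The next comparison asked how members of BRQ-treated tumor-bearing mice differed from those of vehicle-treated ones. Members of BRQ mice held more Chil3 and Ly6g RNA and less Mpo and Pdia3 RNA, and few genes were called. Of 9353 genes, 8 were called (0.0855%), 6 higher (0.0642%) and 2 lower (0.0214%), while 992 had an unadjusted p under 0.05. DESeq2 called 65, of which 4 were shared. With the pool as a block, 126 genes were called, 54 higher and 72 lower. The count was 62 without the NTB mouse of pool 1, 1 and 5 without the vehicle mice of pools 1 and 2, and 2 and 16 without the BRQ mice of pools 1 and 2.

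Chil3 was at 572, 585 and 556 CPM in vehicle and 1761, 1391 and 1769 in BRQ mice (log2 fold change 1.52, SE 0.13, adjusted p = 6.35e-06). The vehicle mice were the lowest of the 9 and the BRQ mice overlapped with the NTB values of 1240.2, 1418 and 1484 CPM, with a BRQ-to-NTB difference that did not pass (log2 fold change 0.25, SE 0.13, adjusted p = 0.314). The call against vehicle held without any 1 mouse and with members of at least 200 Camp UMIs per 10000, and it was lost with hashtag ratios. Ly6g was at 271, 314 and 378 CPM in vehicle against 771, 513 and 760.3 in BRQ mice (log2 fold change 1.10, SE 0.16, adjusted p = 0.00678). Rdm1, a DNA repair protein, was at 11.2, 12.7 and 14.8 CPM in vehicle against 37.1, 31.5 and 29.3 in BRQ mice (log2 fold change 1.45, SE 0.22, adjusted p = 0.00682), and Gpr141, an orphan receptor, at 27.9, 30.4 and 29.6 CPM in vehicle against 67.6, 46.7 and 86.1 in BRQ mice (log2 fold change 1.17, SE 0.20, adjusted p = 0.0253). Zfp608 (log2 fold change 1.205, SE 0.21, adjusted p = 0.0253) and Gm1673 (1.81, SE 0.27, adjusted p = 0.00678) were the others called higher. Gm1673 lay below the level set for naming and was added after its values were seen.

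Mpo was at 2321, 2902 and 2459 CPM in vehicle and 1366, 1481 and 1485 in BRQ mice (log2 fold change -0.82, SE 0.15, adjusted p = 0.0353), and Pdia3, an ER disulfide isomerase, at 300.02, 296 and 252 CPM in vehicle against 161, 166 and 157 in BRQ mice (log2 fold change -0.81, SE 0.13, adjusted p = 0.0101). In all 8 called genes the 3 BRQ mice were apart from the 3 vehicle mice, as they were in 16.2% of all genes tested. With hashtag ratios the calls of Chil3, Ly6g, Rdm1, Zfp608, Gpr141, Mpo and Pdia3 were lost, with members of at least 200 Camp UMIs per 10000 those of Ly6g, Rdm1, Zfp608, Gpr141, Mpo and Pdia3, and with limits read as UMIs those of Ly6g, Gpr141, Mpo and Pdia3. Gm1673 was not called in any of these settings either, nor without the vehicle mouse of pool 1. Without the vehicle or the BRQ mouse of pool 1, Ly6g, Rdm1, Zfp608, Gpr141, Mpo and Pdia3 lost their calls. Without the vehicle mouse of pool 2, Ly6g, Zfp608, Gpr141, Mpo and Pdia3 did, and without that of pool 3, Zfp608, Gpr141 and Mpo did. The call of Mpo was also lost without the NTB mouse of pool 2 and without the BRQ mouse of pool 2 or 3.

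As lists, 21 of the 25 secondary and tertiary granule genes had a positive value, with a median of 0.50 and 2 called. That median was 0.05 with 15 of 24 positive under hashtag ratios, 0.24 with 19 of 24 positive under limits read as UMIs, 0.15 with 17 of 25 positive without the vehicle mouse of pool 1 and 0.30 without the BRQ mouse of pool 3. Of the 12 primary granule genes, 11 had a negative value, with a median of -0.27 and 1 called, and the median was -0.11 with hashtag ratios and -0.48 without the vehicle mouse of pool 3. Ltf was at 1996, 2763 and 3237 CPM in vehicle and 4261, 4009.9 and 4916 in BRQ mice (log2 fold change 0.72, SE 0.17, adjusted p = 0.0896), without overlap and without passing. The ER list had a median of -0.32, with 50 of 52 genes negative and 1 called, and the median was -0.22 with 37 of 48 negative under hashtag ratios and -0.09 with 24 of 37 negative under limits read as UMIs. All 79 ribosomal protein genes were negative (median -0.36), with none called by edgeR, 15 by DESeq2 and 56 at unadjusted p under 0.05. With hashtag ratios 23 of the 79 were positive (median -0.07), and with limits read as UMIs 25 were (median -0.07). With the pool as a block, 7 secondary granule genes were called higher, and 3 primary granule, 8 ER and 17 ribosomal protein genes lower. The median over all genes tested was -0.01. Members of vehicle and BRQ mice had more like Camp levels than members of either had with NTB mice, with per-mouse medians of 241, 180 and 233 UMIs per 10000 in vehicle mice and 276, 244 and 136 in BRQ mice against 483, 524 and 462 in NTB mice. Under the Camp limit of 200 the medians were 0.18 for secondary granule, -0.25 for primary granule, -0.17 for ER and -0.23 for ribosomal protein genes. No gene of S phase, mitosis, pyrimidine synthesis and salvage, the histones, receptors, transcription factors, suppressor cell genes, interferon-stimulated genes, oxidases and antioxidants or p53 targets was called by this edgeR fit. Over the 21 alternatives the highest numbers called were 2 higher among transcription factor genes, 2 higher among receptor genes and 1 higher among oxidase and antioxidant genes. They were 2 higher and 1 lower among suppressor cell genes, 3 lower among histone genes and 1 higher among interferon-stimulated genes. None of them called a p53 target, pyrimidine, S phase or mitosis gene.

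**Figure D5:**
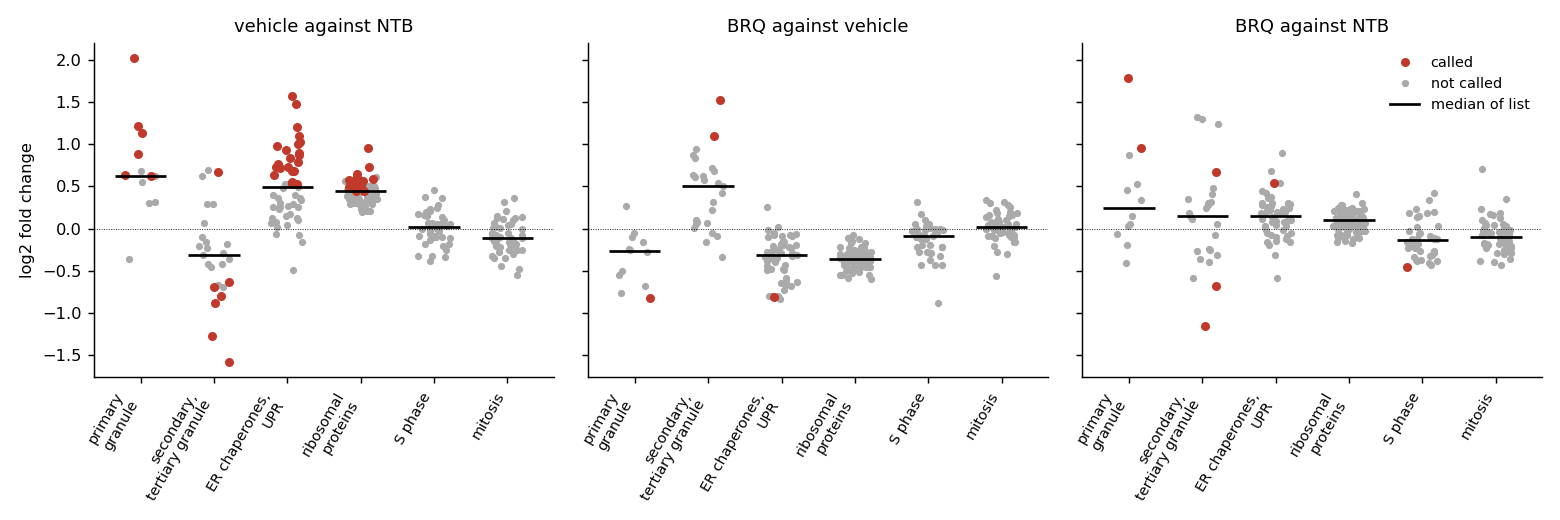
Log2 fold changes (y axis) in members for 6 gene lists in the 3 comparisons. Each point is 1 gene, red where its adjusted p was under 0.05, and black lines are list medians; the vehicle-to-NTB medians of the primary granule, ER and ribosomal lists lie above 0 and their BRQ-to-vehicle medians below 0.

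The third comparison set BRQ mice against NTB mice, and it shares its samples with the other comparisons. Lipg, Stfa2l1, Cstdc4, Cstdc5, Ifitm1, Ifitm2, Ifitm3, S100a6 and S100a10 were called higher in members of BRQ mice than in NTB members, and Ngp, S100a8, Lpl and Vcam1 lower. Of 9353 genes, 263 were called (2.81%), 185 higher (1.98%) and 78 lower (0.834%), and with the pool as a block 433 were called. The groups did not overlap in 21.6% of all genes. Without the NTB mice of pools 1, 2 and 3 the count was 630, 42 and 21, and without the BRQ mice of pools 1, 2 and 3 it was 53, 172 and 97.

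Lipg was at 32.9, 70.5 and 105 CPM in BRQ mice, between the NTB values and the vehicle values given above (log2 fold change 2.69, SE 0.31, adjusted p = 0.000375). Its difference from vehicle did not pass (log2 fold change -1.17, SE 0.26, adjusted p = 0.076), although no BRQ mouse reached a vehicle mouse. Il1f9, which codes for the epithelial and neutrophil cytokine IL-36 gamma, was at 8.69, 11.4 and 13.1 CPM in NTB and 36.2, 42.1 and 82.8 in BRQ mice (log2 fold change 2.07, SE 0.27, adjusted p = 0.00102). The calls of Lipg and Il1f9 held in all 21 alternatives. Stfa2l1 was at 45.6, 13.8 and 176 CPM (log2 fold change 3.83, SE 0.72, adjusted p = 0.00987), Cstdc5 at 233, 64.8 and 809.6 (log2 fold change 3.09, SE 0.61, adjusted p = 0.0131) and Cstdc4 at 30.4, 12.04 and 197 (log2 fold change 3.37, SE 0.89, adjusted p = 0.049), each lowest in the BRQ mouse of pool 2. S100a6 was at 666, 382 and 1316 CPM (log2 fold change 2.11, SE 0.38, adjusted p = 0.00838), S100a10 at 38.04, 41.4 and 26.8 against 21.7, 5.99 and 6.85 in NTB mice (log2 fold change 2.05, SE 0.37, adjusted p = 0.00801), and F13a1, a clotting factor subunit made by monocytes, at 58.4, 31.5 and 61.1 against 26.8, 8.38 and 12.2 (log2 fold change 1.87, SE 0.39, adjusted p = 0.0161). Cxcr2, the chemokine receptor through which neutrophils leave the marrow, rose from 19.6, 29.6 and 22.5 CPM in NTB to 54.5, 43.9 and 139 in BRQ mice (log2 fold change 1.58, SE 0.32, adjusted p = 0.015), highest in the BRQ mouse of pool 3.

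Among genes lower in BRQ mice, Ngp was at 23827, 31856 and 33108 CPM in NTB and 19505, 21885 and 13792 in BRQ mice (log2 fold change -0.69, SE 0.18, adjusted p = 0.0419), and S100a8, a subunit of calprotectin, at 86129.9, 100075 and 93945 CPM in NTB against 63985, 62326 and 46732 in BRQ mice (log2 fold change -0.70, SE 0.17, adjusted p = 0.0348). Its partner S100a9 did not pass (log2 fold change -0.62, SE 0.18, adjusted p = 0.0632). Lpl was at 17.7, 13.1 and 2.51 CPM (log2 fold change -1.71, SE 0.29, adjusted p = 0.00576) and Olfm4 at 299, 277 and 95.3 (log2 fold change -1.16, SE 0.27, adjusted p = 0.0259), both below every NTB mouse. Vcam1, an adhesion molecule of marrow macrophages and stroma, was at 148, 161 and 121 CPM in NTB against 57.5, 77.5 and 31.8 in BRQ mice (log2 fold change -1.29, SE 0.20, adjusted p = 0.00332). Igf2r (-0.91), the zinc transporter gene Slc39a11 (-0.98) and the histone genes Hist1h2br (-1.06) and Hist2h2aa1 (-0.85) were lower as well. Ighm, the heavy chain of IgM, was at 39.8, 34.4 and 286 CPM in NTB and 27.4, 28.7 and 24.3 in BRQ mice (log2 fold change -2.26, SE 0.55, adjusted p = 0.0331). The NTB mouse of pool 3 was far above the others, and the call was lost without it.

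Calls in this comparison also depended on the settings and on single mice. Under the Camp limit of 200, Ngp, S100a8, Olfm4, Igf2r, Ighm and Cstdc4 lost theirs. With hashtag ratios Ngp, S100a8, Hist1h2br, Hist2h2aa1, Slc39a11, F13a1, Cstdc4 and Ighm did, and with limits read as UMIs Ngp, S100a8, Olfm4, Igf2r, Ighm, Hist1h2br, Slc39a11 and Vcam1 did. DESeq2 did not call Cstdc4, Cxcr2, F13a1, Lpl, Olfm4 and S100a10. Without the NTB mouse of pool 3, Stfa2l1, Cstdc4, Cstdc5, S100a6, S100a10, F13a1, Cxcr2, Csf2rb, Ighm, Lpl, Olfm4, Hist1h2br, Igf2r, Hist2h2aa1, Ngp and S100a8 lost theirs, and without that of pool 2, Stfa2l1, Cstdc4, Cstdc5, S100a10, F13a1, Csf2rb, Olfm4, Hist1h2br, Hist2h2aa1, Ngp and S100a8 did. Without the BRQ mouse of pool 1, Cstdc4, S100a10, F13a1, Ighm, Olfm4, Hist1h2br, Hist2h2aa1, Ngp and S100a8 lost theirs. Without that of pool 3, Cstdc4, Cstdc5, Csf2rb, Ighm, Hist2h2aa1, Ngp and S100a8 did, and without that of pool 2, Ighm and S100a8 did. Leaving out the vehicle mouse of pool 1 ended the calls of Ighm, Ngp and S100a8, and that of pool 2 those of Cstdc4, Ighm, Ngp and S100a8.

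By list, 2 of 12 primary granule genes were called higher (median 0.24), Ctsc (1.79) and Cst7 (0.96), an inhibitor of cathepsins, and with the pool as a block 4 were called higher and 1 lower. Both calls were lost with hashtag ratios, where the median was -0.07, and when either pool 2 or pool 3 gave no NTB mouse or pool 3 no BRQ mouse. The median was 0.09 when pool 3 gave no NTB mouse. Of 25 secondary and tertiary granule genes, Ngp and Olfm4 were called lower and Lrg1 higher (0.68), with a median of 0.15 that was 0.45 under the Camp limit of 200, 0.47 with limits read as UMIs and -0.04 without the BRQ mouse of pool 3, and with the pool as a block 4 were called higher and 3 lower. The ER list had 1 called gene, Selenos (0.55), and a median of 0.15, and none of the 79 ribosomal protein genes was called by edgeR (median 0.10), nor by DESeq2, with 2 at unadjusted p under 0.05. Over all genes tested 2.81% were called, 1.98% higher and 0.834% lower. The single call of the ER list, and that of the S phase list below, were near the 2.81%. Of 25 receptor genes, 5 were called higher, among them Csf2rb (0.98), Ccr1 (1.02) and Cd34 (1.75). Ifitm1, Ifitm2, Ifitm3, Trim30a and Ifi47 were called higher among 18 interferon-stimulated genes (1.46, 1.05, 1.22, 0.94 and 0.92). Of the 40 S phase genes, E2f8, a repressor of the cycle, was called lower (-0.46), and 30 of 40 had negative values, with a median of -0.13. None of 50 mitosis genes was called (median -0.09, 8 at unadjusted p under 0.05, none by DESeq2). Over all 9353 genes tested by edgeR, 1677 had an unadjusted p under 0.05. Of 31 histone genes, Hist1h1b was called higher (1.17) and Hist1h1d, Hist1h1e and Hist1h3c lower (-0.70, -0.81 and -0.82). Klf4 (2.25) was called higher and Id2 (-0.56) lower among 21 transcription factor genes, Gclm, Prdx1, Sod1 and Gpx1 higher among 21 oxidase and antioxidant genes, Pmaip1 (2.93) higher among 15 p53 targets, and Cd33 (-0.59) lower with S100a8 among 13 suppressor cell genes. No pyrimidine gene of 30 was called by this edgeR fit, while 3 were called higher with the pool as a block and 1 by DESeq2. Over the 21 alternatives the highest numbers called were 7 higher and 2 lower among transcription factor genes, 10 higher and 4 lower among receptor genes, 6 higher and 3 lower among oxidase and antioxidant genes, 1 higher and 4 lower among suppressor cell genes and 2 higher among p53 target genes. They were 2 higher and 7 lower among histone genes, 8 higher and 2 lower among pyrimidine genes, 6 higher and 1 lower among interferon-stimulated genes, 1 higher and 10 lower among S phase genes and 4 higher and 3 lower among mitosis genes.

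Markers of other cells were summed over the members of each mouse. Over 8 macrophage markers, Vcam1 among them, the sum was 157 to 191 in NTB, 106 to 134 in vehicle and 44.4 to 91.2 CPM in BRQ mice, with none of the 8 at 0 in all mice, and Vcam1 made up most of it. Without Vcam1 the sum was 14.9 to 32.9 CPM in NTB, 12.3 to 24.4 in vehicle and 13.1 to 20.7 in BRQ mice, and the groups overlapped. Over 10 monocyte markers, F13a1, Ccr2 and Klf4 among them, it was 229 to 292, 125 to 490.4 and 306 to 464 CPM, and without these 3 it was 216 to 271, 109.9 to 330.2 and 262 to 366. By gene, 7 of the 9 tested monocyte markers had a positive vehicle-to-NTB value (median 1.58, 3 called higher and 1 lower). For BRQ against NTB 8 of the 9 were positive (median 1.63, 4 called higher). Over 8 B cell markers the sum was 9.28 to 95.1, 7.33 to 192 and 8.81 to 13.97, with Ms4a1 at 0 in every mouse. Transcripts of pre-B cells (Vpreb1, Vpreb3 and Igll1) gave 94 UMIs in the NTB mouse of pool 1, 93 of them in 1 cell, 147 UMIs in the 319 members of the vehicle mouse of pool 1, 74 of them in 1 cell, and 56 UMIs in that of pool 2, 54 of them in 1 cell. Over 8 markers of hematopoietic stem cells and multipotent progenitors it was 30.8 to 59.6, 17.2 to 48.9 and 61.99 to 77.2 CPM, higher in every BRQ mouse than in the others. Over 8 dendritic cell markers it was 45.5 to 162, 26.9 to 31.2 and 23.4 to 111 CPM, lower in every vehicle mouse than in every NTB mouse, with Cd209a at 0 throughout. Erythroid markers reached 1174 CPM in 1 BRQ mouse against at most 218 in NTB and 203 in vehicle mice. The 8 GMP and early progenitor markers summed to 7229 to 11515 CPM in NTB, 17190.4 to 18820.3 in vehicle and 10962 to 12497 in BRQ mice, but Prtn3, Elane, Mpo and Ctsg of the granule list and Ms4a3 of the rule are among them. The other 3, Kit, Cd34 and F13a1, summed to 39.9 to 85.2, 31.8 to 126 and 96.2 to 118 CPM. Over 7 eosinophil markers it was 13.5 to 35.3, 6.81 to 12.2 and 6.69 to 25.5 CPM, with vehicle below NTB mice, and over 8 basophil and mast cell markers 99.2 to 245, 87.2 to 109.9 and 136 to 164 CPM, with vehicle below BRQ mice. Over 12 markers of mature neutrophils it was 205945 to 253412, 176276 to 225842 and 115033 to 164354 CPM, lower in every BRQ mouse than in the others. S100a8 and S100a9 of the comparisons above made up most of this sum, and most of the other markers went the other way. Of the 11 tested, 9 had a positive and 2 a negative BRQ-to-NTB log2 fold change. Their median was 0.97, with 2 called higher and 1 lower. The sums over megakaryocyte and over T and NK cell markers overlapped between all groups. The part of these cells in the calls was not tested.

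Whether differences between mouse groups were the same in members and in neighboring cells was tested with an interaction term in 1 fit over both cell sets of the same mice. Of 10011 genes tested, 153 (1.53%) had a vehicle-to-NTB difference in members that differed from that in GMPs, and in 137 of them the log2 fold change was the more positive one in members. For BRQ against vehicle the count was 23 (0.23%). Against the non-cycling cells, which numbered only 5 in the vehicle mouse of pool 2, 136 of 6775 genes (2.01%) differed for vehicle against NTB and 4 (0.059%) for BRQ against vehicle. Lipg had a larger vehicle-to-NTB rise in members than in GMPs (difference of log2 fold changes 2.08, SE 0.28, adjusted p = 1.97e-05), with mean levels of 10.4 and 144 CPM in NTB and vehicle members and 18.2 and 77.0 CPM in GMPs. For Prtn3 the vehicle-to-NTB difference in members exceeded that in non-cycling cells by 2.83 (SE 0.49, adjusted p = 2.61e-05), with mean levels of 3691 and 8467 CPM in NTB and vehicle members and 2912 and 1402 CPM in non-cycling cells. This difference did not pass with hashtag ratios.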

How the data were processed

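Gene and hashtag UMI counts of 3 pools were deposited by the authors as Cell Ranger 6.0.0 matrices on mm10, and the submitters' processing notes also name Seurat. Barcodes with 500 to 7500 genes and at most 15% mitochondrial UMIs were kept; the study's methods give these limits as transcripts, which was tried as an alternative. Mice were assigned per pool with HTODemux (Seurat 5.3.0, quantile 0.99), and doublets were marked, not removed, with Scrublet (scanpy 1.11.5). Counts of members were summed per mouse and tested in edgeR 4.0.16 (R 4.3.3; TMM, filterByExpr, quasi-likelihood, 9 mice in 1 fit), adjusted over 9357 genes, with the rule genes not counted. DESeq2 1.42.0 was an alternative. Interaction fits held a term for each mouse. CPM are not adjusted for gene length, so levels are compared between samples and not between genes.

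Genes were named from fixed lists, and per comparison as the 8 highest and 8 lowest log2 fold changes (5 and 5 per interaction) among called genes with mean CPM of at least 20 and no overlap between groups. The members, lists and tests were chosen with earlier results of these data known. Mice of 1 pool shared a count matrix, so the pool was tried as a replicate block. Deviations from group means correlated at a median r of 0.0638 over 9 same-pool pairs (-0.00893 to 0.205) and -0.0447 over 18 other pairs. On simulated data for vehicle against NTB with 9231 genes, 200 of them changed, 82.5% were recovered (47.8% at 1.5-fold, 100% at 2- and 3-fold) with 7 false calls. The changed genes were drawn from those with mean CPM of at least 20. Each gene took its spread between mice from the trend over genes in place of its own, with no pool effect. The recovery and the false calls thus need not hold for the real data. Sequences came from RefSeq tables (GRCm38.p6), gene positions from GENCODE M21, in which 9352 of 9357 gene IDs matched.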

Additional observations from a re-analysis of the deposited data

Results flagged for a closer look

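Genes are listed here because the same contrast differed between members and another cell set of the same mice, by the interaction term of the edgeR fit, on the log2 scale with a positive value where the contrast was higher in members. The 5 genes in each direction that met the rule for naming are given, or fewer where fewer met it. The limits of this rule on CPM and overlap were read on the members alone. A gene that changed mainly in the other cells could thus be left out. For vehicle against NTB, members were compared with GMPs. Lipg had a difference of 2.08 (adjusted p = 1.97e-05, means of 10.4 and 144 CPM in NTB and vehicle members and 18.2 and 77.03 in the other cells). For Ifitm6 the difference was 1.5002 (adjusted p = 1.51e-05, means of 487 and 967 CPM in NTB and vehicle members and 28.5 and 18.8 in the other cells). Il1f9 had a difference of 1.35 (adjusted p = 0.0211, means of 11.2 and 32.6 CPM in NTB and vehicle members and 11.1 and 12.5 in the other cells). For Gm15987 the difference was 1.28 (adjusted p = 0.00757, means of 12.5 and 29.96 CPM in NTB and vehicle members and 26.4 and 27.2 in the other cells). Gpx3 had a difference of 1.01 (adjusted p = 0.0185, means of 15.5 and 27.7 CPM in NTB and vehicle members and 21.4 and 20.5 in the other cells). For Fmnl2 the difference was -1.23 (adjusted p = 0.0276, means of 48.9 and 15.1 CPM in NTB and vehicle members and 8.42 and 5.44 in the other cells). Clic4 had a difference of -1.03 (adjusted p = 0.0276, means of 31.3 and 23.1 CPM in NTB and vehicle members and 12.6 and 17.3 in the other cells). For Prkar2a the difference was -0.91 (adjusted p = 0.0374, means of 35.7 and 19.5 CPM in NTB and vehicle members and 24.3 and 29.5 in the other cells). Gm49336 had a difference of -0.75 (adjusted p = 0.0267, means of 54.3 and 40.6 CPM in NTB and vehicle members and 42.6 and 56.1 in the other cells). For Smim14 the difference was -0.72 (adjusted p = 0.0167, means of 114 and 84.4 CPM in NTB and vehicle members and 77.8 and 93.1 in the other cells).

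For BRQ against vehicle, members were also compared with GMPs. Cystm1 had a difference of 2.28 (adjusted p = 0.0014, means of 13.6 and 26.1 CPM in vehicle and BRQ members and 4.95 and 1.92 in the other cells). For Trnt1 the difference was 1.05 (adjusted p = 0.0356, means of 14.4 and 25.6 CPM in vehicle and BRQ members and 38.7 and 32.2 in the other cells). Creld2 had a difference of 1.02 (adjusted p = 0.0111, means of 33.1 and 19.1 CPM in vehicle and BRQ members and 125 and 34.9 in the other cells). For Zmpste24 the difference was 0.81 (adjusted p = 0.0014, means of 233 and 329.6 CPM in vehicle and BRQ members and 65.3 and 56.7 in the other cells). Mcemp1 had a difference of 0.74 (adjusted p = 0.000736, means of 255 and 385 CPM in vehicle and BRQ members and 56.3 and 51.2 in the other cells). For Tcirg1 the difference was -0.72 (adjusted p = 0.0122, means of 78.9 and 48.4 CPM in vehicle and BRQ members and 57.2 and 59.1 in the other cells).

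For vehicle against NTB, members were further compared with Camp-high cells without Mki67 or Top2a, which numbered 5 in the vehicle mouse of pool 2. Cdk5rap3 had a difference of 8.34 (adjusted p = 0.0486, means of 15.6 and 26.2 CPM in NTB and vehicle members and 15.8 and 0 in the other cells). For Mrpl17 the difference was 2.95 (adjusted p = 0.0265, means of 50.2 and 70.2 CPM in NTB and vehicle members and 26.96 and 4.97 in the other cells). Prtn3 had a difference of 2.83 (adjusted p = 2.61e-05, means of 3691 and 8467 CPM in NTB and vehicle members and 2912 and 1402 in the other cells). For Elane the difference was 2.60 (adjusted p = 5.17e-05, means of 3525 and 5099 CPM in NTB and vehicle members and 3250.4 and 924 in the other cells). Fcnb had a difference of 2.23 (adjusted p = 0.000393, means of 1485 and 1088 CPM in NTB and vehicle members and 1096 and 146 in the other cells). For Zfp608 the difference was -1.92 (adjusted p = 0.0287, means of 27.9 and 12.6 CPM in NTB and vehicle members and 29.7 and 64.03 in the other cells). Syne2 had a difference of -1.83 (adjusted p = 0.00915, means of 101 and 44.4 CPM in NTB and vehicle members and 47.3 and 88.6 in the other cells). For Marcks the difference was -1.71 (adjusted p = 0.00863, means of 82.1 and 51.1 CPM in NTB and vehicle members and 65.4 and 108 in the other cells). Kif2a had a difference of -1.68 (adjusted p = 0.0132, means of 54.1 and 36.6 CPM in NTB and vehicle members and 41.3 and 70.7 in the other cells). For Cd33 the difference was -1.24 (adjusted p = 0.0117, means of 91.5 and 40.7 CPM in NTB and vehicle members and 259 and 318 in the other cells). The vehicle non-cycling cells held no Cdk5rap3 UMI, so its fitted value depends on the prior count and is no bound. Several of the listed differences lost significance in many of the alternatives that gave a value, Cdk5rap3 in 10 of 13, Trnt1 in 9 of 14, Mrpl17 and Prkar2a in 6 of 14 each and Gm49336 in 5 of 14. Of the rest, Lipg lost it in none and the others in 1 to 4, with the signs of Fcnb and Cd33 turned under hashtag ratios.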

How the results depend on the processing

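Of 85 calls of named genes, 5 held and 81 kept their sign in every alternative that gave a value. The count of 428 genes for vehicle against NTB became 684 with no filter on low counts, 43 with hashtag ratios, 1579 with the smaller hashtag margin of 0.5, 764 with Scrublet-marked cells left out, 132 with a Camp limit of 50, 72 with a Camp limit of 200, 152 with thinned counts and 21 with the limits of 500 to 7500 read as UMIs, and ran from 32 to 990 when 1 mouse was left out. The count of 8 for BRQ against vehicle became 126 with the pool as a replicate block, 179 with no filter on low counts, 65 with DESeq2, 0 with hashtag ratios (with 385 at unadjusted p under 0.05), 108 with the smaller hashtag margin of 0.5, 191 with Scrublet-marked cells left out, 3 with a Camp limit of 200, 31 with at least 2 UMIs of Mki67 plus Top2a, 3 with thinned counts and 2 with the limits of 500 to 7500 read as UMIs, and ran from 1 to 62 when 1 mouse was left out. The count of 263 for BRQ against NTB became 433 with the pool as a replicate block, 545 with no filter on low counts, 136 with DESeq2, 73 with hashtag ratios, 1601 with the smaller hashtag margin of 0.5, 108 with a Camp limit of 200, 156 with thinned counts and 80 with the limits of 500 to 7500 read as UMIs, and ran from 21 to 630 when 1 mouse was left out. The interaction count of 153 for vehicle against NTB over GMPs became 7 with hashtag ratios and 342 with Scrublet-marked cells left out, and ran from 15 to 226 when 1 mouse was left out. That of 23 for BRQ against vehicle over GMPs became 48 with no filter on low counts, 8 with hashtag ratios and 81 with Scrublet-marked cells left out, and ran from 7 to 32 when 1 mouse was left out. That of 136 for vehicle against NTB over non-cycling cells became 1 with hashtag ratios, and ran from 20 to 191 when 1 mouse was left out. That of 4 for BRQ against vehicle over non-cycling cells became 2 with RLE size factors, 0 with hashtag ratios (with 171 at unadjusted p under 0.05), 0 with Scrublet-marked cells left out (with 358 at unadjusted p under 0.05) and 7 with at least 2 UMIs of Mki67 plus Top2a, and ran from 0 to 67 when 1 mouse was left out. The share differences, in percentage points, moved as follows. Vehicle minus NTB among singlets was -9.82 with hashtag ratios, -30.3 with the smaller hashtag margin of 0.5, and -25.8 to -18.6 without 1 mouse. BRQ minus vehicle among singlets was -1.66 to 1.93 without 1 mouse. BRQ minus NTB among singlets was -11.3 with hashtag ratios, -30.6 with the smaller hashtag margin of 0.5, and -26.04 to -18.9 without 1 mouse. Vehicle minus NTB among Camp-high cells was -8.44 with hashtag ratios, -5.83 with the smaller hashtag margin of 0.5, -6.58 with the limits of 500 to 7500 read as UMIs, and -0.586 to 6.74 without 1 mouse. BRQ minus vehicle among Camp-high cells was 3.99 with hashtag ratios, 5.76 with the smaller hashtag margin of 0.5, and -11.3 to -3.89 without 1 mouse. BRQ minus NTB among Camp-high cells was -0.0647 with the smaller hashtag margin of 0.5, -12.9 with the limits of 500 to 7500 read as UMIs, and -6.35 to -1.92 without 1 mouse. Signs turned for Ighm in BRQ against NTB (1.15 with the smaller hashtag margin), Ltf in vehicle against NTB (0.025 with the limits read as UMIs), and, in vehicle against NTB over non-cycling cells with hashtag ratios, Fcnb (-0.17) and Cd33 (0.12). The cause was not tested. DESeq2 gave no adjusted p for 5988, 7983 and 2 genes in vehicle against NTB, BRQ against vehicle and BRQ against NTB. The smaller hashtag margin and the Camp limit of 200 were chosen after seeing the data. Thin samples limit the depth, above all the 36 members of the vehicle mouse of pool 2.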
